A study of Mus musculus with 4 samples.

Results

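The genes described here are 37 targets and partners of the transcription factor NRF2 and antioxidant enzymes, taken by name from the gene column of the array files. All 37 had at least 1 probe on the array, with 64 probes in all, and 35 of them had a probe that entered the test, among 17723 genes tested. The samples were NIH3T3 cells, an established mouse fibroblast line that the labels also describe as dermal fibroblasts. They were kept in medium with 2% serum and transfected, with apatite nanoparticles (sCA) as carrier, with a control siRNA (siControl, n = 2 arrays) or an siRNA against Timp1 (siTIMP1, n = 2 arrays), so that carrier and transfection were shared by both groups. Neither an untransfected group nor the time after transfection is described in the labels, and nothing there says that the arrays of a group came from separate cultures, so the p-values measure the spread between these arrays, which may be technical.

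NRF2, encoded by Nfe2l2, is held at a low level by KEAP1, which hands it to a ubiquitin ligase for degradation. Oxidants and electrophiles modify KEAP1, and NRF2 then accumulates and binds, with a small MAF protein, to antioxidant response elements near its target genes. These targets make glutathione, reduce thioredoxin, supply NADPH, conjugate and export electrophiles and store iron. Superoxide dismutases, catalase and glutathione peroxidases remove superoxide and peroxides, and several of them are also controlled by other factors.

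Values are normalised log2 signals, which are the log2 processed signal of a spot minus the log2 75th percentile of its array. A fold change is siTIMP1 minus siControl on this scale, with its standard error (SE) from limma, and a gene is called when its adjusted p is under 0.05 over all tested probes. Timp1, the targeted gene, measured 8.16 and 8.54 in siControl and 3.28 and 2.98 in siTIMP1, a fall to 2.68% of the control level (limma adjusted p = 0.0105). All 4 arrays lay on 1 slide with the groups at neighbouring positions, so slide position and group cannot be told apart. The share of spots well above background ran from 45.9% to 52.1%, with the lowest share on siTIMP1 replicate 2 and the highest on siControl replicate 2. All 10 fibroblast markers were well above background on the 4 arrays, and so were 2 of 6 epithelial (Krt8, Krt14), 0 of 4 endothelial, 1 of 3 adipocyte (Fabp4) and 0 of 3 skeletal muscle markers. Apart from fibroblast and leukocyte markers, each list summed to a processed signal of 14 to 108 per array. Of the other markers in these lists, Pecam1 (endothelial) and Des (skeletal muscle) were well above background on 2 arrays. Krt18 (epithelial) and Myog (skeletal muscle) were so on 1 array. Epcam, Cdh1, Krt5, Cdh5, Kdr, Tek, Adipoq, Plin1 and Myod1 were well above background on no array. Of 6 leukocyte markers, 5 were well above background throughout, with a summed processed signal of 3527 to 3534 in siControl and 2994 to 3264 in siTIMP1, and the macrophage marker Adgre1 was at background. Their part in the results was not tested.

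Of the 35 members tested, 4 fell with siTIMP1 and none rose, or 11.4% lower where 0.700% of all genes tested were called lower and 0.0846% higher. The 4 were Me1, Sod2, Abcc4 and Nfe2l2 itself. At an unadjusted p under 0.05 in the same limma fit, 16 members were lower and 1, Prdx2, was higher, against 7.99% and 11.8% of all genes. The median log2 fold change of the members was -0.22, and that of all genes 0.02. Both siTIMP1 arrays lay below both siControl arrays for 21 of 35 members and above them for 3, where 23.0% and 31.0% of all genes did so. The members were chosen with earlier results of these data known, so none of these shares is independent of that choice. Since RNA was taken from whole cultures, fewer cells with a transcript and less of it per cell cannot be told apart.

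The siControl arrays also differed from each other across this list. Replicate 2 was above replicate 1 for 32 of 35 members, where 52.5% of all genes were, and by a median of 0.20 against 0.01 for all genes. The absolute difference had a median of 0.22 for the members and 0.14 for all genes. Between the siTIMP1 arrays the median absolute difference was 0.08 for the members and 0.11 for all genes. Of the members 28 had a fold change below 0, where 46.0% of all genes did, and siTIMP1 replicate 2 was above replicate 1 for 23, where 48.7% of all genes did so. The difference between the siControl arrays exceeded the fold change in size for 15 of 35 members (42.9%), near the 46.4% of all genes. Because replicate 2 was the higher control for most members, each array is given singly below. The cause was not tested.

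**Figure D1:**
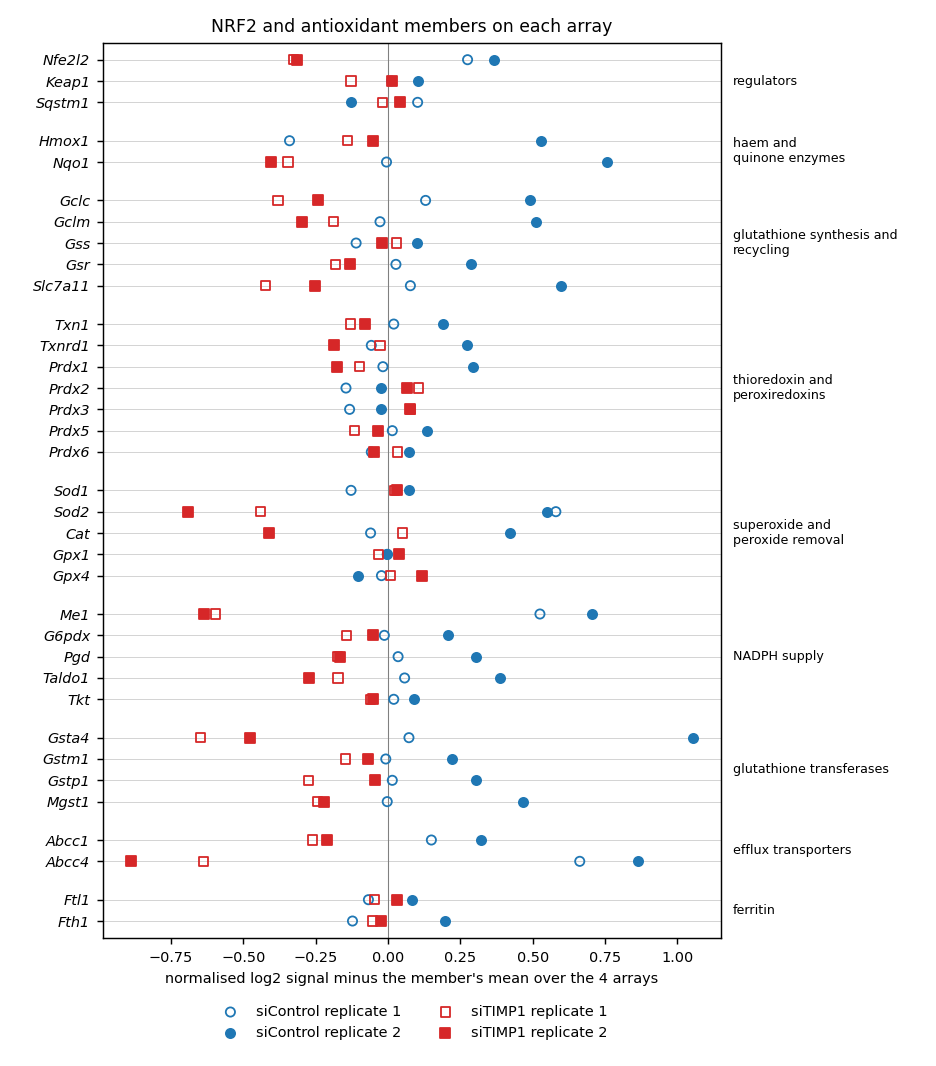
Normalised log2 signal of each member on each array, minus the member's mean over the 4 arrays, with siControl as circles, siTIMP1 as squares, replicate 1 open and replicate 2 filled. Me1, Sod2, Abcc4 and Nfe2l2 have both circles well to the right of both squares, while for Hmox1, Nqo1 and Gsta4 siControl replicate 2 stands alone on the right.

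Me1, the cytosolic malic enzyme that makes NADPH from malate, fell on both of its tested probes. Its brighter probe gave 3.14 and 3.32 in siControl and 2.02 and 1.98 in siTIMP1, with processed signals of 1641 and 1822 against 770 and 747. The log2 fold change was -1.23 (SE 0.0884, limma adjusted p = 0.0229), which left 42.5% of the control level. Its probe lies on chromosome 9 at 86475077 to 86475136 (mm9, the build of the array files). A second Me1 probe, at 86480571 to 86480630 on the same chromosome, had 2.06 and 2.09 in siControl and 0.85 and 0.90 in siTIMP1 and fell by 1.20 (adjusted p = 0.0225). On both probes the gap between groups was several times the gap within either group.

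Sod2 encodes the manganese superoxide dismutase of the mitochondrial matrix, and its transcription also answers to NF-kB. Its signals were 2.06 and 2.03 in siControl and 1.04 and 0.79 in siTIMP1. It fell by 1.13 (SE 0.109, limma adjusted p = 0.0327), to 45.7% of the control level, and it was 1 of 3 members in which siControl replicate 2 was not the higher control. The probe, the only one for Sod2, lies on chromosome 17 at 13210864 to 13210923 (mm9).

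Abcc4, an efflux pump of the plasma membrane for organic anions and cyclic nucleotides, was dimmer. Its processed signals were 185 and 207 in siControl and 76 and 64 in siTIMP1, and all 4 were well above background. On the log2 scale these are -0.01 and 0.19 against -1.31 and -1.56, a fall of 1.53 (SE 0.142, limma adjusted p = 0.0313) and the largest of the tested members. With normexp background correction the fold change was -1.0 (adjusted p = 0.0494). The probe lies on chromosome 14 at 118882104 to 118882163 (mm9).

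Nfe2l2, the gene of NRF2 itself, had 3.13 and 3.22 in siControl and 2.53 and 2.54 in siTIMP1. It fell by 0.64 (SE 0.0706, limma adjusted p = 0.0422), to 64.0% of the control level. Both groups were tight on this probe, which the files assign to the Nfe2l2 mRNA on chromosome 2 at 75513771 to 75513830 (mm9). Another probe, at 75529291 to 75529350 and assigned to a single Ensembl transcript of the gene, went the other way without being called. It was dim, with -2.58 and -2.94 in siControl and -2.10 and -1.90 in siTIMP1, a log2 fold change of 0.76 (SE 0.201, adjusted p = 0.173). With the mean of both probes the value for Nfe2l2 was 0.06 and not called (adjusted p = 0.779), so the fall is that of the brighter probe. The call was also absent with normexp background correction (adjusted p = 0.0648) and with outlier spots kept (adjusted p = 0.0521).

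**Figure D2:**
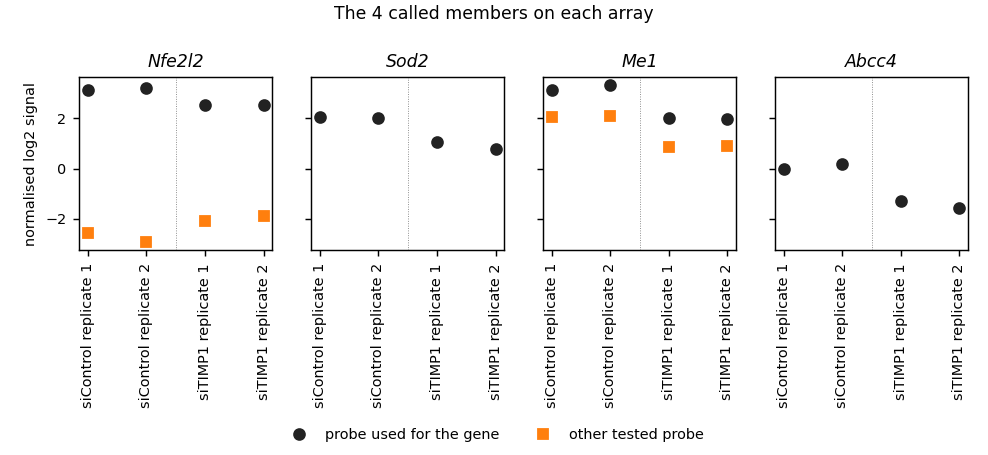
Normalised log2 signal of every tested probe of the 4 members called lower, on each of the 4 arrays, with the probe used for the gene as black circles and any other tested probe as orange squares. Both Me1 probes are about 1.2 lower on the siTIMP1 arrays, while the dim Nfe2l2 probe has an opposite sign and is not called.

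The upstream windows of these 4 genes are shown because the antioxidant response element is the sequence through which NRF2 acts. The letters TGACNNNGC, the core of that element, were searched on both strands in the 250 bases before each RefSeq transcription start (GRCm38.p6). Matches are in capitals, read 5′ to 3′ on the gene's strand, and Me1 and Abcc4 each have 2 annotated starts.
Nfe2l2, chr2:75704664-75704913, minus strand: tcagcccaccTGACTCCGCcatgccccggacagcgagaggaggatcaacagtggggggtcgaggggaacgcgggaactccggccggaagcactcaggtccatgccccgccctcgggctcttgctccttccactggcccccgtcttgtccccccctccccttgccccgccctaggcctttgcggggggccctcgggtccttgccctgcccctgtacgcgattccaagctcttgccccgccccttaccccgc
Abcc4, chr14:118706220-118706469, minus strand: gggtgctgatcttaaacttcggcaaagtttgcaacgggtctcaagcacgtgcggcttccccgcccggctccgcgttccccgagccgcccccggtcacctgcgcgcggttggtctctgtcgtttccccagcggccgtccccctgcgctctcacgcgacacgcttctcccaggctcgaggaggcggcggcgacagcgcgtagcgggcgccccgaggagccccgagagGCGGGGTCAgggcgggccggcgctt
Abcc4, chr14:118676932-118677181, minus strand: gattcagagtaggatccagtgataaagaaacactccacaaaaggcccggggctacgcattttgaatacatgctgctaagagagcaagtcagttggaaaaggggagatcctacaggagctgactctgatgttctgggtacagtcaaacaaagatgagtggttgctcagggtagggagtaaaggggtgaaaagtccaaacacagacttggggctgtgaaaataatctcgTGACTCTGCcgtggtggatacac
Me1, chr9:86695915-86696164, minus strand: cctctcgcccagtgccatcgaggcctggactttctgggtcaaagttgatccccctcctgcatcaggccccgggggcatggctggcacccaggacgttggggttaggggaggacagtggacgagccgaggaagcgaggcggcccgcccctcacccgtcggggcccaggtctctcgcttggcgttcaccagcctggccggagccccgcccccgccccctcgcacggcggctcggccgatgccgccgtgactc
Me1, chr9:86687278-86687527, minus strand: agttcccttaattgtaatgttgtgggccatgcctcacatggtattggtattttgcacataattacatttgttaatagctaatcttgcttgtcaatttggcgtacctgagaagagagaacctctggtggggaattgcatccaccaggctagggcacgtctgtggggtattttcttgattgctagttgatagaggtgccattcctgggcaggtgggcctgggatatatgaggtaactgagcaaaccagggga
Sod2, chr17:13007589-13007838, plus strand: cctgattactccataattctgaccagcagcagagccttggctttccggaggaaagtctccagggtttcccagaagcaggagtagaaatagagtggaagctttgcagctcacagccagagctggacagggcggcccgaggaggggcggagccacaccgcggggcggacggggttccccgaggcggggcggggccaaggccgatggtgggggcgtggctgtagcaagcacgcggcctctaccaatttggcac
The Nfe2l2 match begins 240 bases before the start, and those of Abcc4 begin 25 and 23 bases before its starts. For Me1 and Sod2 these letters were not in the windows. Of the members, 31 had such a window in the RefSeq table, and 8 of these held the core: Nfe2l2, Abcc4, Gclm, Prdx1, Mgst1, Txnrd1, Sod1 and G6pdx. By window, 9 of 42 member windows held it, or 21.4%, and 10.2% of all 32851 windows did. Some members have several windows, a few of which overlap, and many members were listed because they are NRF2 targets. The difference was not tested. A match describes the letters and not a bound site, and these windows leave out elements further away or reaching past the start.

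Among the regulators, neither partner of NRF2 was called. Keap1, its repressor, had 1.92 and 2.01 in siControl and 1.78 and 1.92 in siTIMP1, which overlap, and a log2 fold change of -0.11 (95% interval -0.34 to 0.12). Sqstm1, the autophagy receptor p62 that binds KEAP1 and is also an NRF2 target, had 7.14 and 6.91 against 7.02 and 7.08. Its brightest probe had a fold change of 0.03 and the other tested probes 0.30 and 0.33 (adjusted p = 0.238 and 0.463). Here siControl replicate 1 was the higher control.

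Hmox1 and Nqo1, the haem oxygenase and the quinone reductase that serve as standard readouts of NRF2, showed the control difference in a plain form. Hmox1 had 5.83 and 6.70 in siControl and 6.03 and 6.12 in siTIMP1, so both siTIMP1 values lay between the controls. Its log2 fold change was -0.19 (SE 0.28, limma adjusted p = 0.742, 95% interval -0.90 to 0.53). Against siControl replicate 1 alone it was 0.25 and against replicate 2 alone -0.62. Nqo1 had 1.92 and 2.68 against 1.58 and 1.52, with no overlap. Its log2 fold change was -0.75 (SE 0.251) and it was not called (adjusted p = 0.227). Its controls were 0.76 apart.

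None of the 5 genes of glutathione synthesis and recycling was called. In 4 of them both siTIMP1 arrays were below both controls, as in 23.0% of all genes, and this was not tested for the group. Gclc, the catalytic subunit of glutamate-cysteine ligase, had 1.88 and 2.24 in siControl and 1.37 and 1.51 in siTIMP1, a log2 fold change of -0.62 (SE 0.143, adjusted p = 0.148). Gclm, its modifier subunit, had 3.58 and 4.12 against 3.42 and 3.31 (-0.49, adjusted p = 0.26). Slc7a11, the cystine importer, had -1.20 and -0.68 against -1.70 and -1.53 (-0.67, adjusted p = 0.205). In each of these the siTIMP1 arrays were below both controls, and the higher control was replicate 2. Gsr, glutathione reductase, had 3.93 and 4.19 against 3.72 and 3.77 (-0.31, adjusted p = 0.215). Gss, glutathione synthetase, was the exception, with 3.95 and 4.16 against 4.09 and 4.04 and a fold change of 0.01 (95% interval -0.21 to 0.23).

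The thioredoxin and peroxiredoxin genes had log2 fold changes from -0.27 to 0.17 over 7 tested members and no call. Txn1, thioredoxin, had 7.34 and 7.51 in siControl and 7.19 and 7.24 in siTIMP1 (-0.21, adjusted p = 0.226). Prdx1 had 8.52 and 8.83 against 8.44 and 8.36 (-0.27, adjusted p = 0.271), and its 4 tested probes ran from -0.55 to -0.08. Prdx2, a cytosolic peroxiredoxin, lay on the other side, with 5.59 and 5.71 against 5.84 and 5.80 (0.17, adjusted p = 0.239), as did the mitochondrial Prdx3 (0.15). Txnrd1, the cytosolic thioredoxin reductase, differed by probe. The brighter one had a fold change of -0.22 with overlapping groups, and the other, on chromosome 10 at 82338379 to 82338438 (mm9), had 3.78 and 3.89 against 3.23 and 3.29. That second probe gave -0.58 (SE 0.0723, adjusted p = 0.0578), just short of a call, and separated the groups by more than either pair of arrays differed. Srxn1, sulfiredoxin, which reactivates oxidised peroxiredoxins, was not tested because its spot on siTIMP1 replicate 2 was marked as an outlier. With outlier spots kept it had 5.73 and 6.03 against 5.63 and 5.41, a fold change of -0.36 (SE 0.128, adjusted p = 0.255).

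Apart from Sod2, the genes that remove superoxide and peroxides were not called. Sod1, the cytosolic superoxide dismutase, had 6.52 and 6.72 in siControl and 6.67 and 6.68 in siTIMP1, so the values of siTIMP1 lay between the controls and the fold change was 0.06 (95% interval -0.14 to 0.25). Cat, catalase, had 1.36 and 1.84 against 1.47 and 1.01 (-0.36, 95% interval -0.93 to 0.21), and both pairs of arrays were far apart. Gpx1 and Gpx4, the glutathione peroxidases of the cytosol and of membrane lipids, had fold changes of 0.01 and 0.12. Gpx3, the secreted glutathione peroxidase, was not well above background on any array.

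Of the 5 genes grouped under NADPH supply and the pentose phosphate pathway Me1 fell and 4 were not called. All 5 had a fold change below 0 (46.0% of all genes) and both siTIMP1 arrays below both controls (23.0% of all genes), which was not tested for the group. Taldo1, transaldolase, had 6.57 and 6.90 in siControl and 6.34 and 6.24 in siTIMP1 (-0.45, adjusted p = 0.169). Pgd, 6-phosphogluconate dehydrogenase, had 4.19 and 4.46 against 3.98 and 3.99 (-0.34, adjusted p = 0.191). G6pdx, which opens the pentose phosphate pathway, and the transketolase gene Tkt had -0.20 and -0.11. The Me1 controls differed by 0.18.

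The glutathione transferases gave the widest control difference. Gsta4, which conjugates the lipid aldehyde hydroxynonenal, had 1.92 and 2.90 in siControl and 1.20 and 1.37 in siTIMP1. Its log2 fold change of -1.13 (SE 0.323, adjusted p = 0.188, 95% interval -1.95 to -0.30) was of the size of the Sod2 fall but was not called, with controls 0.99 apart. Mgst1, a microsomal member, had 3.21 and 3.68 against 2.97 and 2.99 (-0.46, adjusted p = 0.238). Gstp1 and Gstm1 had -0.32 and -0.22. The brighter Gstm1 probe, used for the gene, is placed by the files on chromosome 5 and the other, with -0.25, on chromosome 3 (mm9). The RefSeq starts of Gstm1 are on chromosome 3, so the brighter probe is placed away from the gene. Whether it measures Gstm1 was not tested.

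Of the remaining members, Abcc1, a glutathione conjugate pump, had 0.48 and 0.65 in siControl and 0.07 and 0.12 in siTIMP1. The fold change of -0.47 (SE 0.102, adjusted p = 0.135) had the smallest adjusted p after the 4 that fell when each gene is taken by its brightest tested probe, while a dim second probe had 0.29. The ferritin genes Ftl1 and Fth1, whose shells store iron, had -0.02 and -0.08, with overlapping groups. Over the 31 members not called, fold changes ran from -1.13 to 0.17 and adjusted p-values from 0.135 to 0.944. Among 16 members with more than 1 tested probe, 13 had the same sign on every probe, and Abcc1, Nfe2l2 and Prdx6 did not.

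**Figure D3:**
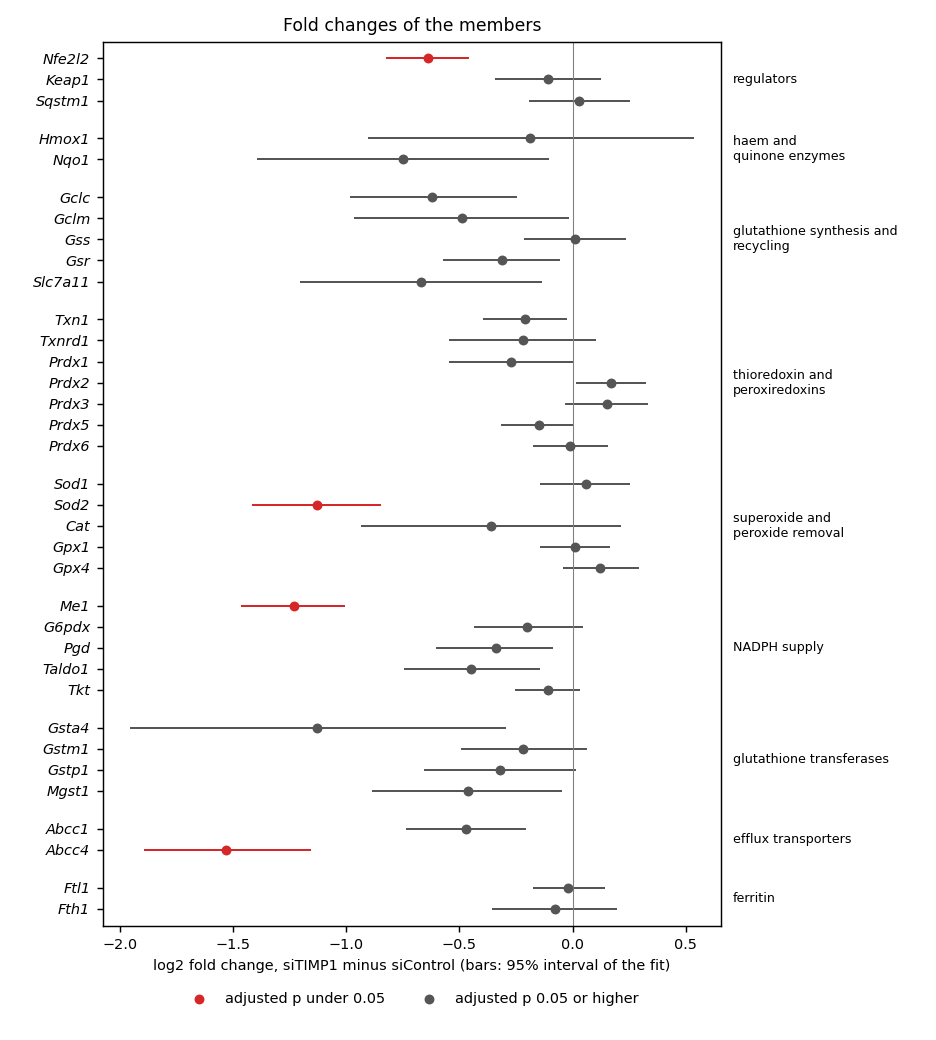
Log2 fold change of each tested member, siTIMP1 minus siControl, with the 95% interval of the limma fit, in red where the adjusted p is under 0.05. The 4 red members run from -1.53 for Abcc4 to -0.64 for Nfe2l2, and the wide intervals of Gsta4, Nqo1 and Hmox1 go with controls 0.76 to 0.99 apart.

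Leaving out each siControl array gave a different count of calls for each. With 1 siControl array left, the spread came from the siTIMP1 arrays alone and the lone control was assumed to vary like them. For the members the siTIMP1 arrays differed by a median of 0.08 and the siControl arrays by 0.22, so these p-values leave out the spread between controls and are no independent support for a call. Me1, Sod2, Abcc4 and Nfe2l2 were called lower against siControl replicate 1 alone (Me1 -1.14, Sod2 -1.15, Abcc4 -1.43, Nfe2l2 -0.60) and against replicate 2 alone (-1.33, -1.12, -1.63 and -0.69). No other member was called against replicate 1 alone, where 1.18% of all genes were called lower. Against replicate 2 alone 16 members were called lower, or 45.7%, where 3.64% of all genes were, and none was called higher. Of all genes 2.30% were called higher against replicate 2 alone and 0.508% against replicate 1 alone. The 12 that joined were Hmox1, Nqo1, Gclc, Gclm, Gsr, Slc7a11, Txn1, Prdx1, Pgd, Taldo1, Gsta4 and Mgst1. The median of the members was -0.12 against replicate 1 and -0.43 against replicate 2, with all genes at 0.03 and 0.02. In sign, 24 members were below 0 against each control, 4 above 0, and 7 changed sign: Sqstm1, Hmox1, Gss, Prdx6, Sod1, Ftl1 and Fth1. The shares of all genes with these signs were not counted, so the sign counts have no background here. Without siTIMP1 replicate 1 or 2, when the spread came from the siControl arrays alone, limma called no member, nor any gene of the whole table. The median of the members was then -0.21 and -0.24, with all genes at 0.02 and 0.03.

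The count of 4 was also set against other ways of processing the arrays. It was 4 with quantile normalization (0.824% of all genes lower), the percentile over detected probes (0.875%), no filter (0.696%), a stricter filter (0.729%), robust eBayes (1.04%) and the authors' deposited value table (0.602%), and at an adjusted p under 0.1 (1.59%). The authors' table follows the same signals with a constant subtracted per array, so it is no independent check. Me1, Sod2 and Abcc4 remained, without Nfe2l2, with normexp (0.480%), outlier spots kept (0.545%) and the mean of a gene's probes (0.406%). No member was called higher in any of these limma fits, where the share of all genes called higher was 0.0903%, 0.102%, 0.288%, 0.0873%, 0.299%, 0.0675%, 0.852%, 0.0564%, 0.0674% and 0.0564% in the same order. Without a variance trend limma called no gene of the table. At an unadjusted p under 0.05 it had 9 members, all lower, where 2833 of 17723 genes passed in either direction.

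**Figure D4:**
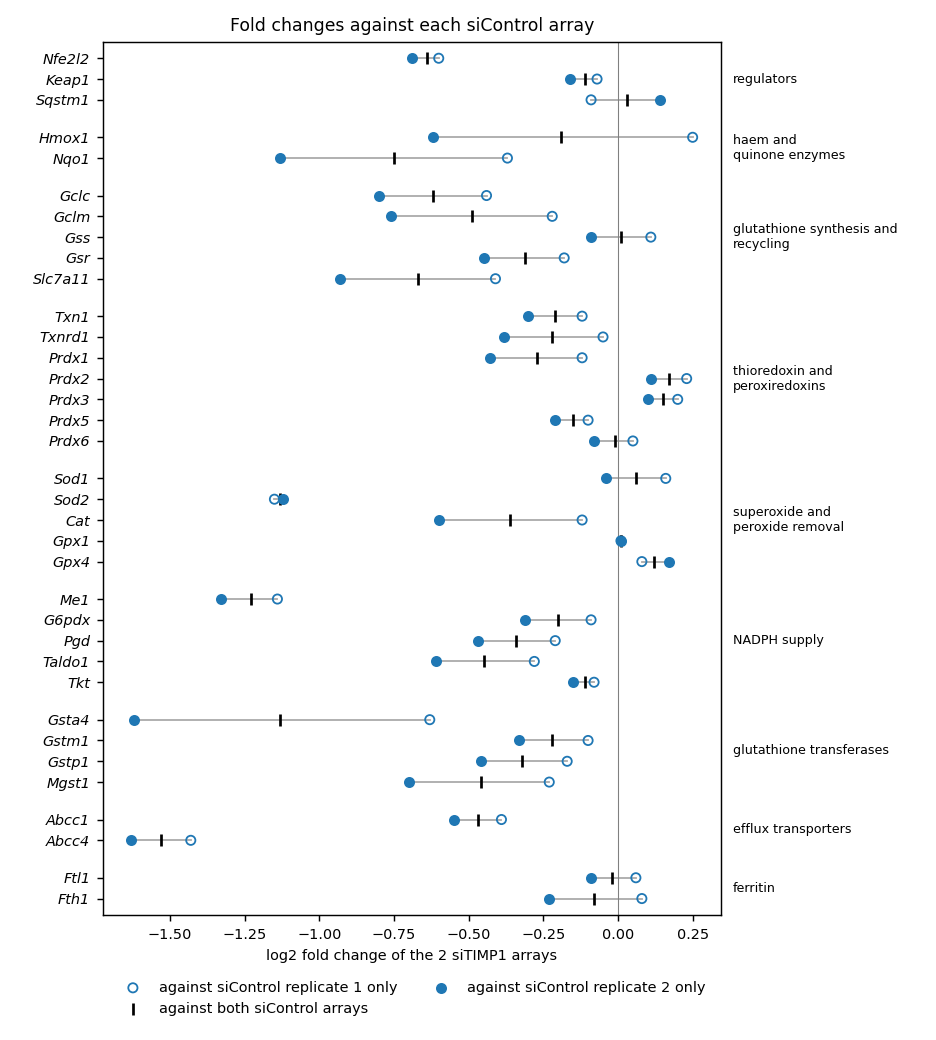
Log2 fold change of each member for both siTIMP1 arrays against siControl replicate 1 alone (open circle), replicate 2 alone (filled circle) and both (bar). The circles of Me1, Sod2, Abcc4 and Nfe2l2 lie close together and far from 0, while those of Hmox1 lie on either side of it, at 0.25 and -0.62.

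A wider list of 87 genes, chosen by function, was set beside these members, and 78 of its genes were tested. It held 12 regulators of NRF2, 35 further NRF2 targets and 40 other redox enzymes, so it is not a list of the NRF2 pathway alone. None was called in limma, where 0.700% of all genes were called lower and 0.0846% higher. At an unadjusted p under 0.05, 8 were lower and 11 higher, against 7.99% and 11.8% of all genes. Its median fold change was 0.05, and siControl replicate 2 was above replicate 1 for 43 of 78, against 52.5% of all genes. The genes with the smallest p included 2 of its 12 regulators of NRF2. Mafk, a small MAF partner, had 0.40 and 0.40 in siControl and 0.89 and 0.95 in siTIMP1 (0.52, adjusted p = 0.0927), and Mafg, another, had 5.67 and 5.57 against 5.35 and 5.27 (-0.31, adjusted p = 0.115). Neither passed the threshold, and they differed in direction. Glrx, glutaredoxin, had 0.96 and 1.58 against 0.35 and 0.30 (-0.94, adjusted p = 0.143). Slc40a1, the iron exporter ferroportin, is an NRF2 target but was counted here among the other redox enzymes. Its signals were 0.24 and 1.48 against -0.85 and -1.0 (-1.78, adjusted p = 0.144), with the higher control again replicate 2. The 29 further NRF2 targets tested had a median of -0.01 and the 37 other redox enzymes 0.09. The difference between these lists and the members was not tested.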

How the data were processed

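RNA of 4 samples was measured on Agilent arrays in 1 colour. The deposited intensity values came from Feature Extraction (version 11.5.1.1 in the submitters' processing notes). They are background-subtracted and detrended within the array and not scaled between arrays, per the file headers. The authors' value table holds log2 values that follow these signals with a constant subtracted per array. Its making is not given in the sources used here, and it served as an alternative.

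Each processed intensity was turned into log2 and the 75th percentile of that array (control spots left out) was subtracted. Outlier spots, 136 to 250 per array, were dropped, and repeated spots averaged. None was saturated. The test took probes measured on every array and, in 1 group or both, well above background throughout, which were 26015 of 56605. It was limma (version 3.58.1, R 4.3.3), with eBayes moderated along a mean trend and p-values adjusted by Benjamini-Hochberg. Each gene is represented by its brightest tested probe. The fit was tested on simulated data. The number of arrays limits the precision. Replicate numbers follow accession order and only name samples.

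The members and lists were chosen with earlier results of these data known. Values by array are given for called members, then by p up to 15 in all, and for the 5 members whose controls differed most. Those of other members were added after they were seen. Of the wider list the 4 genes of smallest p are named. Promoter windows are those of RefSeq (GRCm38.p6). Exon and UTR positions of probes were not analysed here. Alternatives changed the normalization, background correction, filter, variance model, probe rule, value table or threshold, or left out 1 array. Figures were drawn with matplotlib 3.10.9.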

Additional observations from a re-analysis of the deposited data

How the results depend on the processing

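Members called lower numbered 4, or 3 where Nfe2l2 lost its call (normexp, outliers kept, averaged probes). In limma without a variance trend there were 0, with 9 at an unadjusted p under 0.05, where 2833 of 17723 genes passed in either direction. On all arrays 16 members were lower at an unadjusted p under 0.05 in limma, where 7.99% of all genes were. Calls with 1 array left out rest on the spread of 1 group and are given above. Members called higher numbered 0 in every fit on all arrays. At an unadjusted p under 0.05 in the main limma fit 1 was higher, where 11.8% of all genes were. That count was 0 with quantile normalization, the percentile over detected probes, averaged probes or no variance trend. Leaving out 1 array moved the median of -0.22 to between -0.43 and -0.12. Nfe2l2 had 0.06 when its probes were averaged. Timp1 stayed at -5.22 without a trend (adjusted p 0.133) and lay from -5.41 to -5.04 with 1 array left out. Genes lower in the whole table, 124 in number, came to 258 unfiltered, 0 without a trend, 72 with averaged probes, 281 at an adjusted p under 0.1, 1416 unadjusted, and 0 to 645 with 1 array left out. Genes higher, 15, came to 107 unfiltered, 0 without a trend, 2090 unadjusted, 151 at an adjusted p under 0.1, 53 with robust eBayes, and 0 to 408 with 1 array left out. The cause was not tested. Of 490 single member values, 463 kept their call status, 12 gained a call, 14 lost one and 1 lost its call with the sign reversed, and 21 had another sign than on all arrays. A block for the slide had no second level. No paired analysis was possible because the labels number no replicates in common. Signal near background limits what can be seen of Gpx3.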
